A study of Mus musculus with 13 samples.

Results

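Neurons taken from the posterior end of the mouse retrosplenial cortex were compared with neurons taken from its anterior end, with all cells of a level summed whatever their type. The dissection level of each cell is part of its name in the deposited count table: 292 cells were posterior and 256 anterior, together 548 of 765 cells, and the 217 medium cells entered no test. All cells came from wild-type B6 mice with no treatment named, from 11 samples of 3 animals, and each animal gave cells at every level. Cells were dissociated from acute slices and pooled, so a sum holds the neurons that survived dissociation and were picked, and how they were picked is not stated in the sources used here. Counts were summed per animal and level, which gave 3 posterior and 3 anterior sums. Levels are given in CPM, a gene's count per 1000000 counts of its sum.

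The retrosplenial cortex is a midline area that links the hippocampal formation and the anterior thalamus with the rest of the cortex and takes part in spatial memory and navigation. Its excitatory neurons fall into classes by layer and by target. Extratelencephalic neurons of layer 5 send axons to subcortical targets and depend on the transcription factors Fezf2 and Bcl11b, corticothalamic neurons of layer 6 project to the thalamus, and intratelencephalic neurons stay within the cortex and its connected telencephalic areas. When classes are dissected in different proportions, a sum over all cells changes even where no class changes its own levels.

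By Slc17a7, Gad1 and Gad2 the summed cells fitted their label as excitatory neurons. Slc17a7, the vesicular glutamate transporter of cortical excitatory neurons, had a count in 543 of the 548 cells, and Gad1 and Gad2, which make GABA, stood at 0.883 CPM or less in every sum. The 5 interneuron markers present summed to 25.4 to 121 CPM in the anterior and 0.436 to 30.4 CPM in the posterior sums. Pvalb, 1 of the listed interneuron markers, reached 517 CPM in a cluster of 11 cells (cluster 10 below). Anterior sums held 3610619 to 23035650 counts and posterior sums 5642513 to 20393331. The anterior cells were deeper: the median cell had 176916 counts, and the median posterior cell 112362. The medians were near each other in animal 1 (72761 anterior and 73206 posterior) and apart in animal 2 (191596 and 99282) and animal 3 (205195 and 171058).

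The mix of cell types was described by 10 clusters drawn over all cells, and clusters 4 and 7 are given as 1 class here. In these 2 clusters Fezf2, Bcl11b, Parm1 and Chst8, markers of layer 5 extratelencephalic neurons, were all high. The level of Fezf2 was 294 CPM in the former and 223 CPM in the latter, and that of Bcl11b 481 and 457 CPM. Bcl11b and Chst8 were higher there than in any other cluster. Parm1, at 425 and 395 CPM, was higher in cluster 2 (641 CPM), and Fezf2 stood at 229 CPM in cluster 10. The 10 leading genes of clusters 4 and 7 also held Crym (cluster 4) and Pvalb (cluster 7), markers of other types, so the clusters are called by number. Together they held 2 of 45, 13 of 106 and 4 of 105 anterior cells in animals 1, 2 and 3, which is 4.44%, 12.3% and 3.81%. At the posterior level they held 37 of 72, 42 of 109 and 25 of 111 cells, which is 51.4%, 38.5% and 22.5%. Every posterior share lay above every anterior share, with a mean difference of 30.6 percentage points (two-sided exact permutation p = 0.10, the smallest that 3 against 3 can give). The medium level, at 11.4%, 11.2% and 4.30%, lay near the anterior one.

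**Figure D1:**
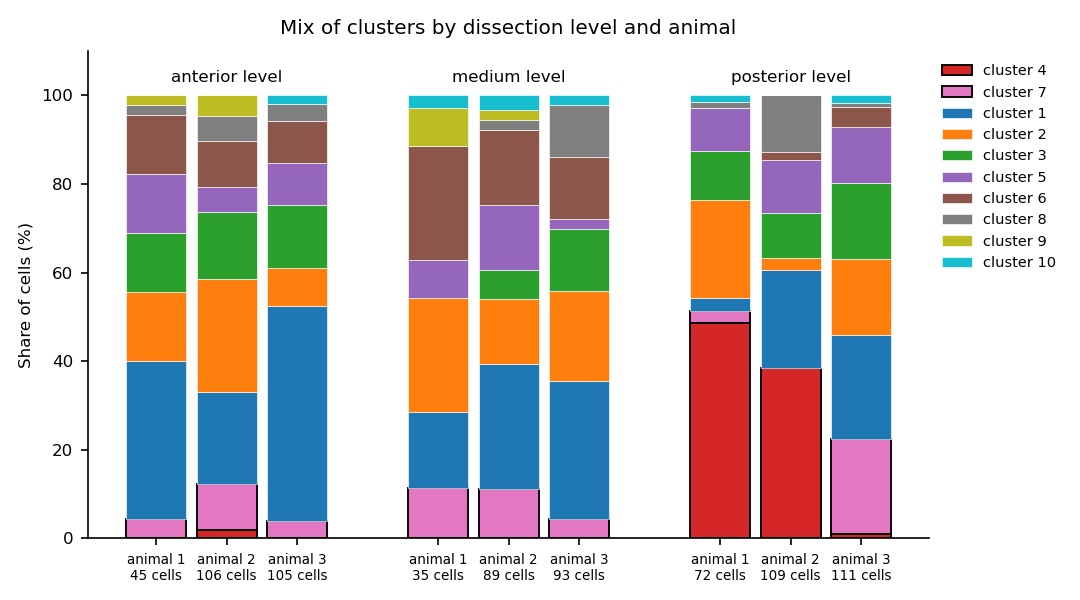
Share of cells (percent, vertical axis) in each of the 10 clusters, in 1 bar per animal at the anterior, medium and posterior dissection level, with clusters 4 and 7 outlined at the bottom. The outlined share is 22.5% to 51.4% in posterior bars and 3.81% to 12.3% in anterior bars.

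Of the counts, clusters 4 and 7 took 57.1%, 45.0% and 29.4% in the posterior sums and 8.74%, 17.98% and 5.03% in the anterior sums. The 2 clusters were not spread alike over the animals. Of their posterior cells, 35 of 37 in animal 1 and 42 of 42 in animal 2 were in cluster 4, and 24 of 25 in animal 3 were in cluster 7, while 17 of their 19 anterior cells were in cluster 7. Taken alone, cluster 4 went from a mean of 0.629% of anterior to 29.3% of posterior cells, higher in 3 of 3 animals (exact permutation p = 0.20). In animal 3 it went from 0 of 105 to 1 of 111 cells, so the mean rests on animals 1 and 2. Cluster 7 went from 6.21% to 8.13%, higher in 1 of 3. Cluster 1 was 35.6%, 20.8% and 48.6% of anterior and 2.78%, 22.02% and 23.4% of posterior cells, lower in 2 of 3 animals. Cluster 6, where Rprm and Syt6 of layer 6 corticothalamic neurons led, moved the other way in each animal, from 11.1% ± 2.00 of anterior to 2.11% ± 2.27 of posterior cells (SD, n = 3; exact permutation p = 0.10). With 10 clusters tested, no share passed a Benjamini-Hochberg adjusted threshold (every adjusted p was 1).

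Over all cells, 4 of 13373 genes passed the test with edgeR, with the animal as a block, with p adjusted by Benjamini-Hochberg and under 0.05 and with a log2 fold change of at least 1 in size. The genes higher at the posterior level were Lypd1, a surface protein of the Ly6 family that binds nicotinic acetylcholine receptors, and Efnb3, the ephrin-B3 ligand of Eph receptors in axon guidance (2 genes, 0.015% of those tested). On the lower side 2 genes passed (0.015%), Ptgds among them, which makes prostaglandin D2 and is abundant in oligodendrocytes and meninges. At an unadjusted p under 0.05 there were 462 genes higher (3.45%) and 503 lower (3.76%), and the median log2 fold change over all genes was 0.00.

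Lypd1 stood at 103, 199.5 and 91.1 CPM in the anterior sums of animals 1, 2 and 3 and at 415, 567 and 290 CPM in the posterior sums. Every posterior sum was above every anterior sum (log2 fold change 1.71 ± 0.13 SE, adjusted p = 0.0269 by edgeR; higher in 3 of 3 animals). Efnb3 stood at 5.54, 10.9 and 1.65 CPM at the anterior level and at 45.7, 94.2 and 28.1 CPM at the posterior level, again with no overlap (log2 fold change 3.40 ± 0.30 SE, adjusted p = 0.0429 by edgeR; higher in 3 of 3 animals). Such a separation of the 3 posterior from the 3 anterior values was seen in 1483 of the genes tested (11.1%), so it does not by itself set a gene apart. Neither call was secure: without the animal as a block the adjusted p were 0.238 and 0.256. Leaving out animal 1, animal 3, sample 2, sample 14 or sample 17 ended the call of Lypd1 (adjusted p 0.0638 to 0.343), and that of Efnb3 was lost without any 1 animal and without samples 1, 11, 12, 15 or 17 (adjusted p 0.0517 to 0.370), while over all 25 alternatives the log2 fold changes lay between 1.57 and 2.12 and between 3.07 and 4.01.

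The other genes with the smallest p among those higher at the posterior level did not pass. Gap43, a protein of growth cones and axon terminals, stood at 374 to 449 CPM in the anterior and 706 to 1019 CPM in the posterior sums, and came closest (log2 fold change 1.05 ± 0.10 SE, adjusted p = 0.0542 by edgeR). Crym, which binds thyroid hormone in the cytosol, stood at 70.7 to 124 CPM and 203 to 474 CPM. Cdh13, a cadherin held to the membrane by a lipid anchor, stood at 18.5 to 50.9 CPM and 93.3 to 137 CPM. Fezf2 stood at 35.2 to 77.6 CPM and 112 to 176 CPM. Groups of posterior and anterior sums did not overlap in any of these, but these genes were picked by their p, and that separation adds nothing to it.

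Lower expressed genes followed the same order. Nnat, an imprinted gene for a small membrane protein of the endoplasmic reticulum, stood at 2.22, 4.66 and 2.95 CPM in the anterior sums and at 30.7, 60.3 and 15.1 CPM in the posterior sums (log2 fold change 3.21 ± 0.39 SE, adjusted p = 0.142 by edgeR). Qrfpr, the receptor of the neuropeptide QRFP, stood at 1.91 to 8.75 CPM and 26.9 to 52.5 CPM. Fstl5, of the follistatin-like family, stood at 6.99 to 21.8 CPM and 33.1 to 62.5 CPM, and Tox2, a nuclear protein with an HMG box, at 9.59 to 13.1 CPM and 31.0 to 76.6 CPM. Their adjusted p ran from 0.148 to 0.149.

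**Figure D2:**
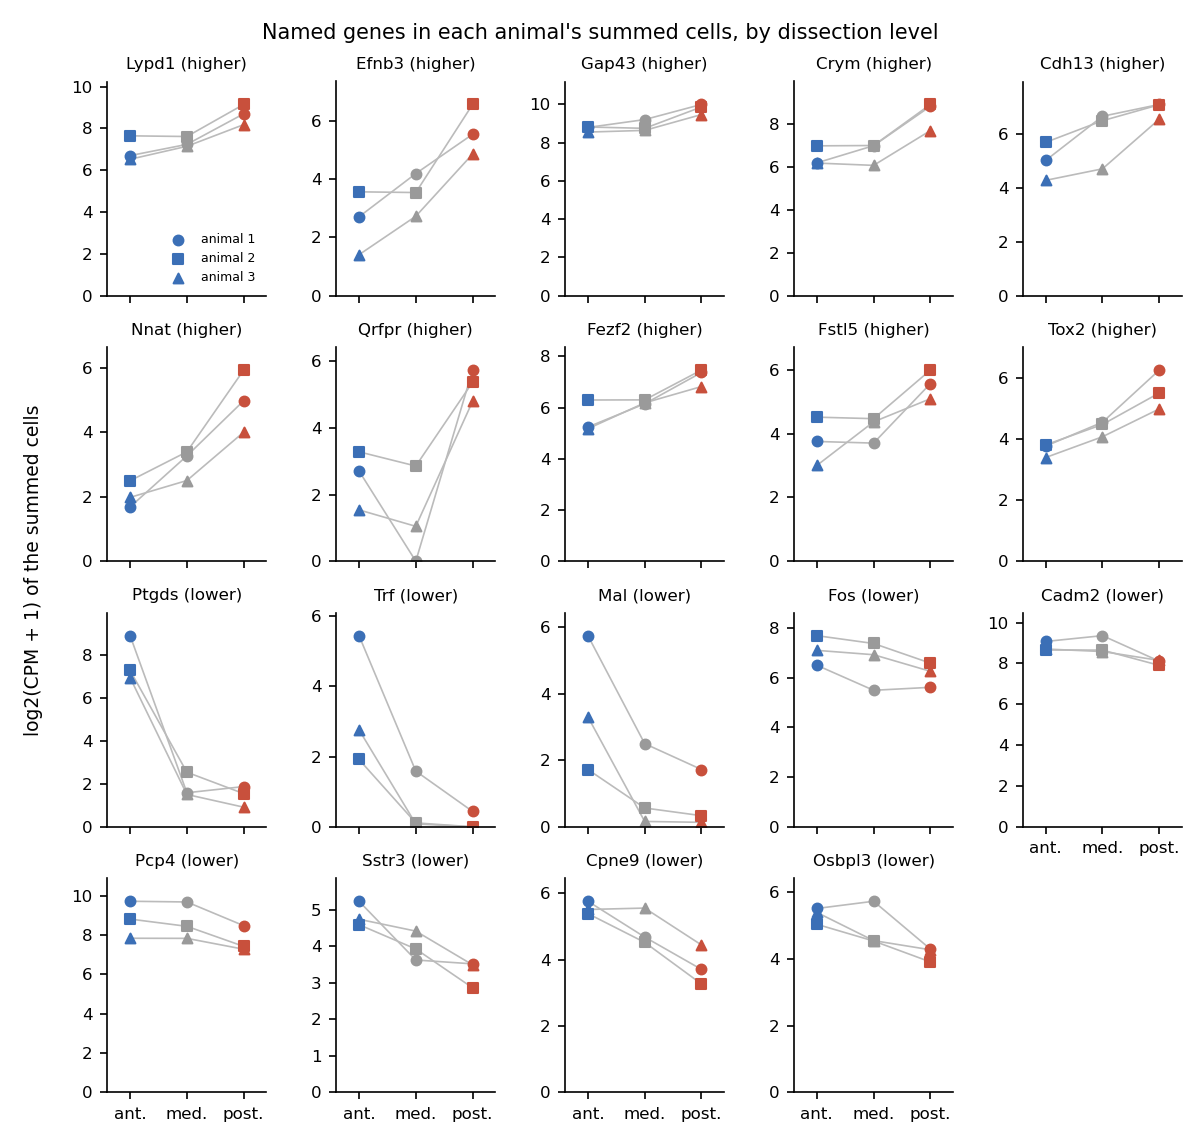
Level of each named gene as log2(CPM + 1) of the summed cells (vertical axis) at the anterior, medium and posterior level (horizontal axis), with 1 symbol and 1 line per animal. In the top rows, posterior values lie above anterior ones in 3 of 3 animals, and in the bottom rows below them.

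On the lower side, Ptgds stood at 474, 153 and 121 CPM in the anterior sums and at 2.66, 1.92 and 0.883 CPM in the posterior sums (log2 fold change -6.95 ± 0.25 SE, adjusted p = 0.00054 by edgeR; lower in 3 of 3 animals). Trf, the iron carrier transferrin that oligodendrocytes express, had 345 anterior counts against 2 posterior counts, and Mal, a proteolipid of myelin, stood at 2.30 to 52.9 CPM against 0.0981 to 2.30 CPM. Neither of these passed (edgeR adjusted p = 0.0749 and 0.151).

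The counts of Ptgds, Trf and Mal came almost all from 5 of the 256 anterior cells. The 5 cells held 843 to 3228 counts of Ptgds each, 7696 of the 7767 anterior counts (99.1%). Any other anterior or posterior cell held at most 4 counts of Ptgds. The 5 cells came from samples 1, 2, 13 and 17, with 2 in animal 1, 1 in animal 2 and 2 in animal 3, and each also had counts of Slc17a7. They held 97.1% of the anterior counts of Mal and 95.1% of those of Trf. Non-neuronal markers took at least 0.05% of the counts in 7 cells, all of them anterior, the 5 included. Without the 5 cells Ptgds had a log2 fold change of 0.18 (edgeR adjusted p = 0.986), and edgeR called no gene in either direction (923 at an unadjusted p under 0.05), while DESeq2 called 70 higher and 42 lower. Lypd1 and Efnb3 then kept their sizes, at log2 fold changes of 1.78 and 3.51, with adjusted p of 0.152 and 0.101. Leaving out sample 17, which held 2 of the cells, likewise left no gene called, and the call of Ptgds was also lost without sample 13 (adjusted p = 0.360).

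**Figure D3:**
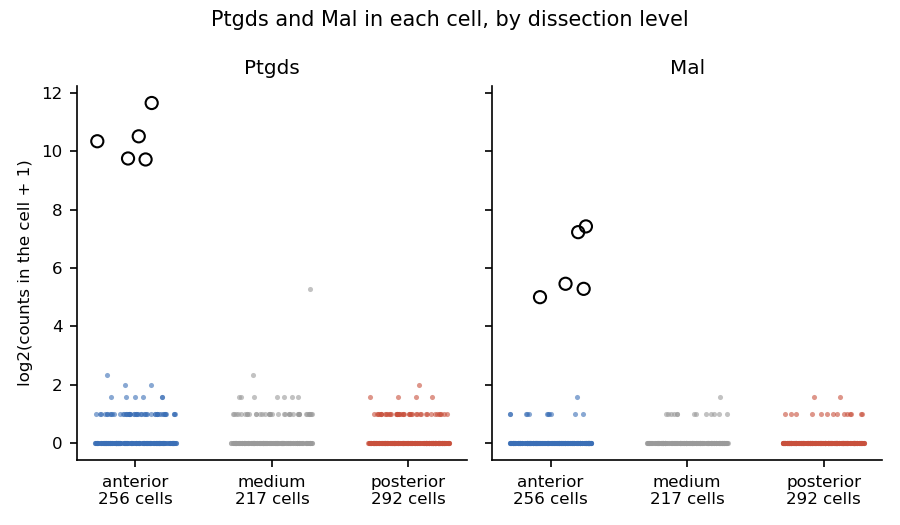
Counts of Ptgds and Mal in each cell as log2(counts + 1) (vertical axis), by dissection level, with 1 point per cell and the cells of at least 100 Ptgds counts as open circles. The 5 open circles are anterior and hold 843 to 3228 counts of Ptgds.

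The oligodendrocyte markers Mog, Mobp, Mag and Mal were lower at an unadjusted p under 0.05. Without the 5 cells Mog, Mag and Mal had too few counts to be tested, and Mobp had a log2 fold change of -0.78 (adjusted p = 0.737 by edgeR). Groups overlapped for Mbp, the myelin basic protein, at 79.9 to 113 CPM in the anterior and 85.3 to 133 CPM in the posterior sums. Astrocyte markers gave no such difference (4 tested, median 0.10), with Gfap at 0.354 CPM or less in every sum.

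The remaining genes with the smallest p on the lower side did not depend on those cells, which held 0.322% to 2.55% of their anterior counts. Cadm2, a cell adhesion molecule of synapses and axons, stood at 404 to 540 CPM in the anterior and 239 to 283 CPM in the posterior sums (log2 fold change -0.77 ± 0.11 SE, adjusted p = 0.185 by edgeR). Sstr3, a somatostatin receptor of the neuronal cilium, stood at 23.1 to 36.6 CPM and 6.27 to 10.5 CPM. Cpne9, a calcium-dependent phospholipid-binding protein, stood at 40.9 to 53.2 CPM and 8.63 to 20.7 CPM, and Osbpl3, a lipid transfer protein, at 31.8 to 44.6 CPM and 14.03 to 18.6 CPM. Posterior and anterior sums overlapped for Fos (89.5 to 205 CPM and 47.9 to 94.9 CPM) and for Pcp4, a calmodulin-binding peptide (227 to 836 CPM and 154 to 354 CPM), although each was lower in 3 of 3 animals. The adjusted p of these 6 genes ran from 0.158 to 0.319.

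To state which differences follow the mix, each animal's CPM difference was divided exactly into a mix part, which comes from clusters taking other shares of the counts, and a within part, which comes from other levels inside clusters. A difference is said to follow the mix where the mix part had the sign of the difference in 3 of 3 animals and was at least 50% of it on average, and to lie within clusters where the within part did so. Where a cluster had cells at only 1 level of an animal, its level there stood for both, so it gave no within part. Since clusters and levels rest on the same cells, no test is attached. Of the 462 higher genes, 158 followed the mix (34.2%), 211 lay within clusters (45.7%) and 93 did neither. Of the 503 lower genes, 119 followed the mix (23.7%), 272 lay within clusters (54.1%) and 112 did neither. Over all 13373 genes the shares were 17.7%, 22.7% and 59.7%.

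Most of the higher named genes followed the mix, and most of the lower ones did not. Among the 10 higher genes, 8 followed the mix: Tox2 (78.5% of the difference), Qrfpr (69.7%), Fezf2 (68.2%), Gap43 (65.5%), Crym (62.7%), Lypd1 (55.7%), Efnb3 (54.6%) and Cdh13 (52.5%). Of these, Efnb3, Gap43, Crym, Qrfpr and Fezf2 had their highest level in cluster 4 while Lypd1 and Tox2 were highest in cluster 10 and Cdh13 in cluster 9, which hold 11 cells each over all levels, with cluster 4 next. Nnat lay within clusters, with a mix part of -5.67%. Fstl5, at 48.6%, was just under the limit and was classed with the mix in each of the other divisions tried. Among the lower genes Pcp4 followed the mix (60.9%), but lay within clusters (41.0%) when cluster levels were taken from all cells: its level was 2873 CPM in cluster 9, which had no posterior cell, 1674 CPM in cluster 6, and 191 and 38.5 CPM in clusters 4 and 7. Fos did neither, and Cadm2, Sstr3, Cpne9 and Osbpl3 lay within clusters. Ptgds, Trf and Mal were classed so too, but on the counts of the 5 cells, without which Ptgds and Mal did neither.

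**Figure D4:**
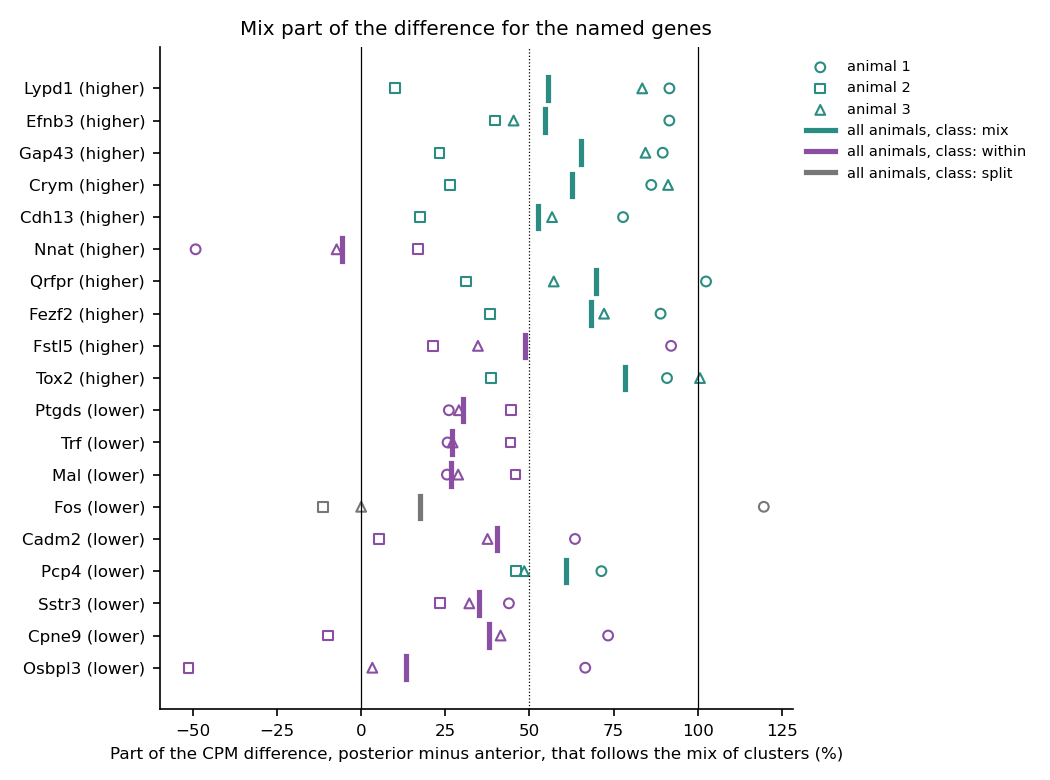
Percent of the CPM difference, posterior minus anterior, that follows the mix of clusters (horizontal axis) for the named genes, with open symbols for the animals and a bar for the mean difference over animals. For the 9 genes that follow the mix, animal 2 lies lowest, at 10.1% to 46.0%.

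The animals differed in this division, which the rule for clusters absent at 1 level sets in part. Cluster 4 held 52.9% of the posterior counts of animal 1 and had no anterior cell there, so its whole contribution counted as mix. In animal 2 it held 45.0% of the posterior counts, and 2 anterior cells let a within part be counted. In animal 3 it held 1.03%. The percents averaged over animals carry this too. For the 9 named genes that followed the mix, the mix part was 71.4% to 102.5% of the difference in animal 1, 45.3% to 100.7% in animal 3 and 10.1% to 46.0% in animal 2. For Cadm2, Sstr3, Cpne9 and Osbpl3 it was 43.9% to 73.4% in animal 1, 3.34% to 41.4% in animal 3 and -51.3% to 23.5% in animal 2. For Lypd1 the within part in animal 2 was 330 CPM, of which 196 CPM came from cluster 4, at 120 CPM over 2 anterior cells and 939 CPM over 42 posterior cells, so that most of it rests on those 2 cells. Cluster 1 of animal 2 gave 53.4 CPM of it, at 17.6 CPM over 22 anterior cells and 315 CPM over 24 posterior cells. At least 10 counts were found in 13 of those posterior cells, which came from 4 samples, and in 3 of the anterior ones. In cluster 1 of animal 3 it stood at 33.5 CPM anterior and 16.8 CPM posterior. Animal 2 also had 11 of its 13 anterior cells of clusters 4 and 7 in cluster 7 and all 42 posterior ones in cluster 4. With coarser clusters (resolution 0.5), which join clusters 4 and 7, the mix part was 74.1% for Lypd1, 42.3% for Efnb3, 48.0% for Cdh13 and 48.7% for Qrfpr, so that the last 3 were then classed as lying within clusters.

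A second measure, called equal mix here, gave the clusters that had at least 3 cells at both levels of an animal the same weight at both and left out the others. Cluster 4 therefore entered in no animal, cluster 7 in animal 3 alone, and in animal 1 only clusters 2, 3 and 5 entered. It thus leaves out most of the cells by which the mix differed, and genes high in clusters 4 and 7 can come out smaller by that construction. Of 13373 genes, 0 were higher and 1 was lower (0.00748%) with limma at the same threshold, and 848 had an unadjusted p under 0.05. The gene called was Ptgds (log2 fold change -5.97, SE 0.38 on the log2(value + 1) scale, limma adjusted p = 0.000962), and without the 5 cells no gene was called. The 158 higher genes that followed the mix had a median log2 fold change of 0.87 over all cells and 0.26 at an equal mix, and the 119 lower ones of -0.66 and -0.23. Genes that lay within clusters had medians of 0.69 and 0.63 for the 211 higher and of -0.91 and -0.68 for the 272 lower ones. The scale understates low genes, and both measures use the same cells, so neither supports the other.

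**Figure D5:**
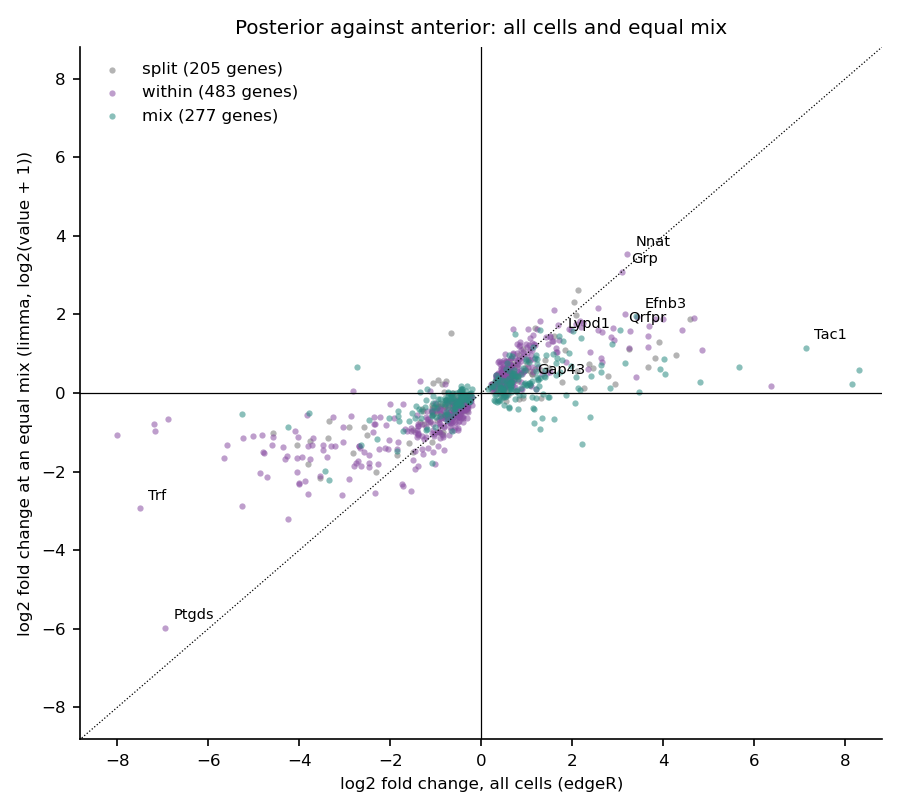
Log2 fold change, posterior against anterior, over all cells (horizontal axis) and at an equal mix (vertical axis) for the 965 genes with an unadjusted p under 0.05, coloured by whether the difference followed the mix, lay within clusters or did neither. Nnat and Ptgds lie near the dotted line of equal values, and Gap43 at 0.26 at an equal mix.

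For single genes, Gap43 went from a log2 fold change of 1.05 to 0.26 (SE 0.11), Fezf2 from 1.64 to 0.77 (SE 0.22) and Tox2 from 1.98 to 0.68 (SE 0.43). Lypd1 stayed at 1.45 (SE 0.30) and Nnat at 3.54 (SE 0.52). Efnb3 went from 3.40 to 1.96 (SE 0.64), Crym from 2.01 to 1.58 (SE 0.54) and Qrfpr from 3.04 to 1.60 (SE 0.51). None of these genes passed at an equal mix (limma adjusted p 0.216 to 0.800).

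With clusters 4 and 7 left out altogether, edgeR called 2 lower genes of 12745 (0.0157%), Ptgds again among them, and 0 higher ones, with 477 genes at an unadjusted p under 0.05. DESeq2 called 10 higher and 10 lower, and without the 5 cells edgeR called none. Gap43 had a log2 fold change of 0.32 in this fit, Crym of 0.56, Fezf2 of 0.66, Lypd1 of 1.38 and Nnat of 3.90.

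Inside single clusters, 3 had at least 3 cells in each of the 6 sums. In cluster 5, where Osr1, Oprk1, Car12 and Penk of layer 6 intratelencephalic neurons led, Nnat was called higher (1 of 8729 genes, 0.0115%). Its counts were 6, 9 and 3 in the anterior sums of 6, 6 and 10 cells and 150, 609 and 269 in the posterior sums of 7, 13 and 14 cells, which is 12.8, 7.62 and 1.08 CPM against 411, 487 and 102 CPM (log2 fold change 5.80 ± 0.45 SE, adjusted p = 0.000797 by edgeR). The call was lost without animal 2 (adjusted p = 0.136). Nnat was far higher in cluster 5 (104 CPM over all its cells) than in any other cluster (at most 9.81 CPM), and cluster 5 took similar shares of anterior and posterior cells, 9.51% ± 3.84 and 11.4% ± 1.51 (SD, n = 3). The log2 fold change of Nnat in cluster 5 minus that in cluster 3 was 4.07 (SE 1.28, edgeR unadjusted p = 0.00512, adjusted p = 0.898). Minus that in cluster 2 it was 6.28 (SE 1.61, edgeR unadjusted p = 0.000958, adjusted p = 0.944). Neither of these differences between clusters passed.

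In clusters 2 and 3, edgeR called 0 of 9618 and 0 of 9649 genes, with 202 and 462 at an unadjusted p under 0.05. DESeq2 called 1 higher gene in cluster 2, and 48 higher and 45 lower in cluster 3. Clusters 4 and 7 pooled, a class made after their split over the animals was seen, held 2 to 42 cells a sum. There edgeR called Grp, the gastrin-releasing peptide, as 1 higher gene of 10574 (0.00946%; log2 fold change 4.12 ± 0.45 SE, adjusted p = 0.0228). Over all cells Grp stood at 6.09, 10.0 and 35.1 CPM in the anterior and 83.8, 253 and 73.1 CPM in the posterior sums, without passing (edgeR adjusted p = 0.457). The pooled call sets different clusters against each other, since the anterior sums were mostly cluster 7 and the posterior sums of animals 1 and 2 mostly cluster 4. Over all their cells the level of Grp was 51.5 CPM in the former and 222 CPM in the latter. In cluster 7 of animal 3 it had 6 counts over 4 anterior cells (5.18 CPM) and 575 counts over 24 posterior cells (99.3 CPM).

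Gene lists are given by counts at an unadjusted p under 0.05, beside the 3.45% and 3.76% of all genes, and no member of the lists that follow passed the test other than Efnb3. Examples were named after their values were seen. Of 5 layer 5 extratelencephalic markers, 4 were higher and none lower (list median 1.39): Fezf2, Bcl11b (56.2 to 124 CPM anterior and 192 to 263 CPM posterior), Chst8, a sulfotransferase (26.5 to 33.5 CPM and 64.5 to 103 CPM), and Parm1. All 4 followed the mix. Clusters 4 and 7 were singled out by these markers, so the count adds nothing independent. Layer 6 corticothalamic markers were 1 higher of 4 (Crym), layer 6 intratelencephalic markers 1 lower of 4 (Penk), and granular retrosplenial markers 1 higher of 5, Tshz2, a zinc finger factor at 417 to 556 CPM and 520 to 737 CPM that lay within clusters.

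Transcription factors of cortical areas and projection neurons held 7 higher and 3 lower of 36 (list median 0.07). Ldb2, a cofactor of LIM homeodomain factors, stood at 129 to 136 CPM in the anterior and 191 to 257 CPM in the posterior sums and followed the mix (86.6% of the difference). Tshz3 stood at 32.4 to 39.3 CPM and 54.8 to 80.9 CPM, with a mix part of 21.5%. Emx2, a homeodomain factor of the medial cortex, stood at 3.67 to 9.51 CPM and 0.0871 to 1.47 CPM.

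Synaptic organizers held 1 higher and 4 lower of 20 (list median 0.05). C1ql2, a secreted C1q-like protein of synapses, stood at 37.7, 74.0 and 23.6 CPM in the anterior and at 413, 228 and 267 CPM in the posterior sums (log2 fold change 2.84 ± 0.39 SE, adjusted p = 0.151 by edgeR). It was almost confined to clusters 4 and 7 (540 and 745 CPM, against at most 7.66 CPM in any other cluster), and its mix part was 69.5%. Cbln4, a cerebellin, stood at 10.8 to 13.8 CPM and 1.06 to 3.24 CPM, with a mix part of 4.67%.

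Among neuropeptide genes 4 were higher and 2 lower of 14 (list median -0.05). Pdyn, the dynorphin precursor, stood at 2.73 to 3.88 CPM and 3.14 to 29.8 CPM and followed the mix (91.8%), and Nrn1, the neuritin gene of the same list, stood at 538 to 809 CPM and 322 to 692 CPM and did so too (78.1%). Grp lay within clusters (mix part 40.4%). Neuropeptide receptors were 2 higher (Qrfpr and Cckbr) and 1 lower (Sstr3) of 22.

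Immediate early genes, which neurons switch on within minutes of activity, held 0 higher and 9 lower of 23, with 18 of 23 fitted lower and a list median of -0.50. Arc stood at 129, 268 and 84.9 CPM in the anterior and 43.1, 56.6 and 59.1 CPM in the posterior sums, and Npas4 at 42.8 to 52.5 CPM and 21.96 to 25.5 CPM. The list summed to 1740, 3019 and 2160 CPM at the anterior and to 1497, 1735 and 1729 CPM at the posterior level. Of the 9 genes, 2 followed the mix, 2 lay within clusters and 5 did neither, and the list median was -0.35 at an equal mix. Heat shock and dissociation stress genes summed to 5088 to 5518 CPM and 5167 to 5617 CPM, with 0 higher and 3 lower of 16 (Hspa1a, Hsph1 and Gadd45a) and a median of -0.01. Fos was low in clusters 4 and 7 (44.5 and 67.0 CPM) against 130 to 205 CPM in clusters 1, 2, 3, 5, 6 and 8. It was lower still in clusters 9 and 10, of 11 cells each (28.2 and 0.828 CPM). Cluster 4 had 2 anterior cells and no medium ones, so its level cannot be told apart from that of the posterior level. The part of slice handling, of the share of cells in clusters 4 and 7, and of depth per cell was not tested for this list.

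Surface and channel families held genes on both sides. Axon guidance genes were 7 higher and 3 lower of 61 (list median 0.01), Efnb3 and the semaphorin receptor Nrp1 among the higher ones. Nrp1 stood at 23.7 to 32.6 CPM and 57.0 to 95.7 CPM, and 61.6% of its difference followed the mix. Its log2 fold change was 1.28 over all cells and did not shrink at an equal mix (1.61). Cadherins and protocadherins were 4 higher and 2 lower of 44, potassium channel subunits 7 and 7 of 61, sodium, calcium and HCN channels 3 and 2 of 31, and glutamate and GABA receptor subunits 4 and 2 of 36, with list medians between -0.13 and -0.03. Kcng1, a modifier subunit of voltage-gated potassium channels, stood at 7.86 to 23.8 CPM and 21.0 to 50.2 CPM and followed the mix (59.1%). Its log2 fold change went from 1.15 over all cells to -0.40 at an equal mix. Sema6a, a membrane-bound semaphorin, stood at 3.48 to 6.37 CPM and 11.7 to 21.6 CPM and lay within clusters (mix part 8.91%).

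Imprinted genes, expressed from 1 parental copy, held 5 higher and 1 lower of 17 (list median 0.14). Beside Nnat, Ndn, the necdin gene, lay within clusters (383, 605 and 426 CPM anterior and 620, 961 and 652 CPM posterior; log2 fold change 0.65 ± 0.09 SE, adjusted p = 0.149 by edgeR; mix part 42.5%). Impact, Rasgrf1 and Grb10 followed the mix, and Sgce was the lower one.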

How the data were processed

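The deposited table holds whole-number counts per gene and cell, which the authors had not normalized, as the values show; whether they are reads or molecules is not given in the sources used here. The submitters' processing notes name Seurat and the build NCBIM37. The animal of each cell came from a deposited table of cells, so levels are paired by animal, and 0 columns lacked a sample. Clusters were drawn with scanpy 1.11.5 (10000 per cell, log, 2000 variable genes, 30 components, 15 neighbours, Leiden resolution 1, seed 1); no doublet caller was run. Sums were tested with edgeR 4.0.16 (filterByExpr, TMM, quasi-likelihood) and with limma 3.58.1 at an equal mix, where clusters with at least 3 cells at both levels of an animal entered. Alternatives included DESeq2 1.42.0, other scaling, filters and clusters, and left-out animals, samples and cells. On simulated counts of these libraries the edgeR test recovered 8 of 50 genes changed by a log2 of 1 and 34 of 50 changed by a log2 of 2, out of 13373.

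Named genes were up to 15 called in each direction, filled to 10 by the smallest p and then given as not passing, up to 5 called a direction in the other fits, and list members that passed. Predicted, ribosomal and mitochondrial genes were not named, and 1 gene the rule would name is not reported here. The comparison and the gene lists were chosen with earlier results of these data known. Microglial markers are not analysed here, and the brain sections were not used. Counting was not stated to use strand, so genes with overlapping or near-identical partners are uncertain.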

Additional observations from a re-analysis of the deposited data

How the results depend on the processing

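Named genes other than Ptgds kept their direction under every alternative of the comparison over all cells that gave a value, 20 to 25 a gene; Ptgds turned to 0.18 without the 5 cells of at least 100 Ptgds counts and to 0.16 without the cells rich in non-neuronal markers. At an equal mix, leaving out the 5 cells turned Ptgds to 0.12 and Mal to 0.11. The counts of calls were small and moved with most choices, and the cause was not tested. Against 2 higher and 2 lower genes, the fit without the animal as a block gave 0 and 1, DESeq2 71 and 59, sums per sample 37 and 17, and the mean of single-cell CPM 1 higher. The fit of sums per sample takes the 11 samples as independent although they come from 3 animals, so its counts overstate the replication. Leaving out 1 animal or 1 sample gave 0 to 9 higher and 0 to 5 lower, with the highest counts without animal 2 and no call without sample 17. Without the shallowest cells, or without 14 posterior cells of sample 1 that are named differently, 1 gene was higher. Without the 5 Ptgds cells, or without cells rich in non-neuronal markers, edgeR gave 0 and 0. Without the 5 cells DESeq2 gave 70 and 42, edgeR without the block 1 and 0, and edgeR without animal 2 gave 9 and 0.

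For the mix, leaving out an animal gave 108 to 243 higher and 107 to 209 lower genes that follow it, and 183 to 320 higher genes within clusters, with the most that follow it without animal 2 and the most within clusters without animal 1; resolution 0.5 gave 116 higher genes that follow the mix and resolution 2 gave 210. At an equal mix, leaving out an animal gave 0 to 7 higher and 0 to 9 lower genes (the highest without animal 1), resolution 0.5 gave 2 lower, and at least 5 cells a cluster or no Ptgds cells gave 0 lower. Without clusters 4 and 7, dropping the animal block gave 1 lower, leaving out an animal 0 to 1 higher and 1 to 1 lower, DESeq2 10 and 10, and leaving out the Ptgds cells 0 lower. Within cluster 2, DESeq2 gave 1 higher and leaving out an animal 0 to 3 higher and 0 to 5 lower. Within cluster 3, DESeq2 gave 48 and 45. Within cluster 5, DESeq2 gave 8 and 6 and leaving out an animal 0 to 1 higher. Precision is limited by 3 animals and, within clusters, by a minimum of 3 cells a sum.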

Other observations

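The medium level entered no test. By means over the animals it lay nearer to the anterior than to the posterior level for all 10 named higher genes. Among the lower ones this held for Fos, Cadm2, Pcp4, Cpne9 and Osbpl3. Cpne9 was, however, nearer to its posterior value in animal 1 (medium 24.7, anterior 53.2, posterior 12.1) and animal 2 (21.96, 40.9 and 8.63 CPM). Osbpl3 was so in animal 2 (22.2, 31.8 and 14.03 CPM) and animal 3 (22.4, 41.02 and 18.3 CPM). In the remaining animal each lay above its anterior value. Fos in animal 1 (43.97 CPM) lay below its posterior value (47.9 CPM). Of the higher genes, Cdh13 was nearer to its posterior value in animal 1 (101, 31.6 and 137 CPM). Lypd1 stood at 150, 195 and 141 CPM in the medium sums, Crym at 125, 125 and 65.6 CPM and Efnb3 at 17.3, 10.7 and 5.63 CPM. Among the lower genes, Sstr3 stood at 11.3, 14.2 and 20.3 CPM and Ptgds at 2.00, 4.81 and 1.84 CPM in the medium sums. The mean of each was nearer to its posterior mean. In animal 3 the medium value of Sstr3 was nearer to the anterior one (25.7 CPM) than to the posterior one (10.2 CPM). The highest count of Ptgds in any medium cell was 38. Within cluster 5 Nnat stood at 89.3, 40.5 and 71.5 CPM in the medium sums of 3, 13 and 2 cells, between the anterior and the posterior values of each animal.

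Genes of general metabolism gave no call and small list medians. Of 85 nuclear genes of the respiratory chain, 0 had an unadjusted p under 0.05 with edgeR and 0 were called, with a list median of 0.03. Of 80 ribosomal protein genes 1 was higher at that threshold (median 0.12, 55 fitted higher), and of 17 mitochondrially encoded genes 2 were (median 0.20, 12 fitted higher). Over all genes 3.45% were higher at that threshold, and the median was 0.002.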
